A study of Homo sapiens with 25 samples.

Results

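The comparison described here is the 24 h response to erlotinib in the breast cancer line BT20, set against the 24 h response in the breast cancer line MDA-MB-453. BT20 has high EGFR without ERBB2 amplification, and MDA-MB-453 has high ERBB2. Erlotinib blocks the EGFR kinase and was added at 10 µM to cells plated 24 h earlier in medium with 10% FBS. The groups were BT20 at 24 h (3 arrays), BT20 at 0 min (4 arrays), MDA-MB-453 at 24 h (3 arrays) and MDA-MB-453 at 0 min (3 arrays), 13 of the 25 arrays of the series. The 0 min groups are the baselines of their lines, although their labels name the drug as well. No group was kept for 24 h without erlotinib, so the drug and the time in culture cannot be told apart, and each line stands for itself alone. The labels do not state separate cultures, so p-values measure the spread between these samples, which may be technical. In bulk RNA, fewer cells with a transcript and less of it per cell cannot be told apart.

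Values are log2 GCRMA values of Affymetrix probe sets. A gene was represented by 1 probe set, and a gene was tested if it exceeded 4 in log2 units on 3 or more of the 13 arrays, which held for 12113 of 19775. The quantity compared is a difference of differences: the BT20 change (24 h minus 0 min) minus the MDA-MB-453 change (24 h minus 0 min). It is positive where a transcript went further up, or less far down, in BT20. Numbers after ± are standard errors from limma, and a gene is said to change, rise or fall where its Benjamini-Hochberg adjusted p over the 12113 genes was under 0.05. A level under 4 is close to the array's background, so the size of a change that ends or starts there is inexact.

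EGFR sits at the plasma membrane, binds ligands such as TGFA, HBEGF and EREG, and signals through RAS and ERK to transcription factors and through PI3K and AKT to FOXO factors and cell growth. ERBB2 has no ligand of its own and works in pairs with its relatives, above all ERBB3. Blocking EGFR in a cell that depends on it is known to lower the feedback inhibitors of ERK (the DUSP, SPRY and SPRED families) and to release FOXO factors from AKT.

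Of the 4 BT20 arrays at 0 min, array 4 stood apart. It correlated with the BT20 arrays taken at 6 h at r = 0.994 to 0.996 and with the other 0 min arrays at 0.983 to 0.985, over probe sets. The median SD of a gene in the group was 0.245 with it and 0.135 without it, against 0.0934 in BT20 at 24 h, 0.165 in MDA-MB-453 at 24 h and 0.142 in MDA-MB-453 at 0 min. Counts over all genes are therefore given with and without that array, and so are the counts of some of the gene lists. The cell lines were checked with marker lists: the summed basal epithelial level was 14.05 to 14.42 in log2 units in BT20 and 12.04 to 12.32 in MDA-MB-453, and the luminal level 14.72 to 15.19 in BT20 and 15.53 to 15.71 in MDA-MB-453. These sums used 7 of 13 basal and 18 of 19 luminal markers. They include EGFR as basal and ERBB2 as luminal, the genes that describe the lines above, so the check is not independent of that description. Of 7 blood cell markers on the array, 7 in BT20 at both times, 6 in MDA-MB-453 at 24 h and 7 in MDA-MB-453 at 0 min were under 4 on every array of the group. Endothelial markers were under 4 for 7 of 7 in MDA-MB-453, while in BT20 4 of 7 were, with CDH5 at a mean of 11.03 at 24 h and 11.13 at 0 min. Of 8 fibroblast markers, 7 in BT20 at both times, 7 in MDA-MB-453 at 24 h and 6 in MDA-MB-453 at 0 min were under 4 throughout, and the collagen gene COL1A1 was above it in both lines.

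The response was much wider in BT20. In that line 2758 genes (22.8% of those tested) rose and 2048 (16.9%) fell, whereas in MDA-MB-453 710 (5.86%) rose and 308 (2.54%) fell. The change itself differed between the lines for 2177 genes, being higher in BT20 for 1141 (9.42%) and lower in BT20 for 1036 (8.55%). Without array 4 the difference was called for 3840 genes, 2032 (16.8%) higher and 1808 (14.9%) lower in BT20. The median change over all genes tested was 0.03 in BT20 and 0.02 in MDA-MB-453, a value that the normalization across arrays holds near 0.

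Genes were sorted by their calls. A gene was placed in BT20 only, or in MDA-MB-453 only, where it changed in that line, was not called in the other, and the difference between the lines was itself called in that direction. On these terms 950 genes (7.84%) rose and 755 (6.23%) fell in BT20 only, while 145 (1.2%) rose and 49 (0.405%) fell in MDA-MB-453 only. In both lines 408 genes (3.37%) rose and 173 (1.43%) fell. Opposite calls were made for 74 genes: 30 (0.248%) rose in BT20 and fell in MDA-MB-453, and 44 (0.363%) fell in BT20 and rose in MDA-MB-453. Another 2446 genes were called in BT20, and 169 in MDA-MB-453, without a called difference, so the data do not place them in 1 line or in both.

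Without array 4 the same sorting gave 2737 genes in BT20 only (against 1705), 352 in MDA-MB-453 only (against 194), 1291 in both (against 581) and 186 opposite (against 74). The larger lists contain most of the smaller ones: 1531 of the 1705, 179 of the 194, 571 of the 581 and 73 of the 74 stayed in their class. A gene can also belong to 1 line because the other line hardly has it. Of the 950 genes that rose in BT20 only, 280 had group means under 4 at both times in MDA-MB-453, as did 191 of the 755 that fell. Of the 145 that rose in MDA-MB-453 only, 86 had such means in BT20, as did 21 of the 49 that fell.

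**Figure D1:**
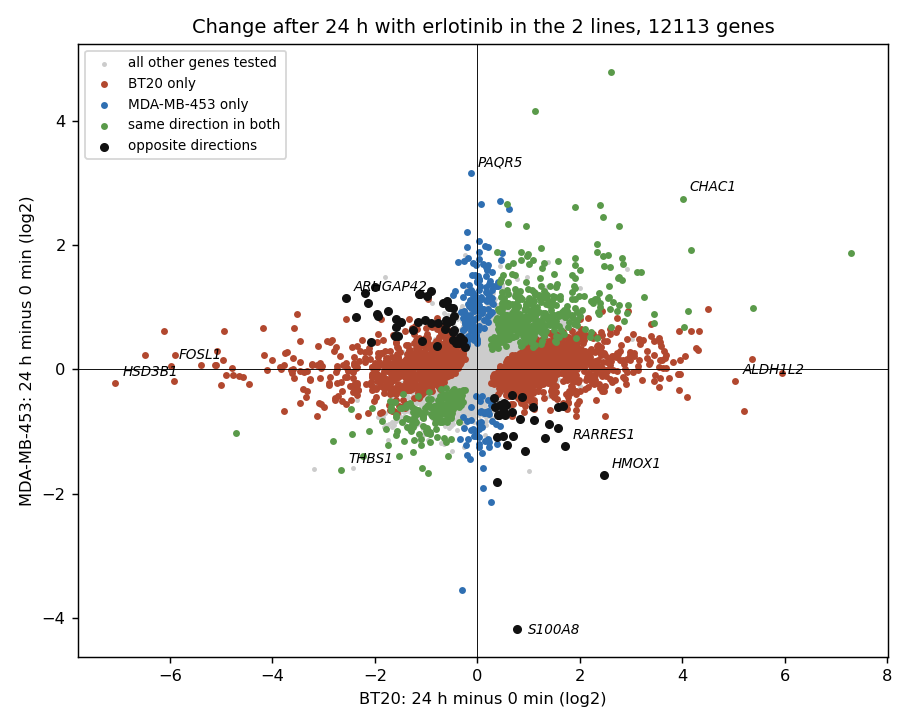
Each point is 1 of 12113 genes, placed by its change in BT20 (horizontal axis, 24 h minus 0 min, log2) and in MDA-MB-453 (vertical axis, same units), and coloured by class. Genes of BT20 only lie along the horizontal axis, genes of MDA-MB-453 only along the vertical axis, and the 74 opposite genes in the upper left and lower right areas.

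**Figure D2:**
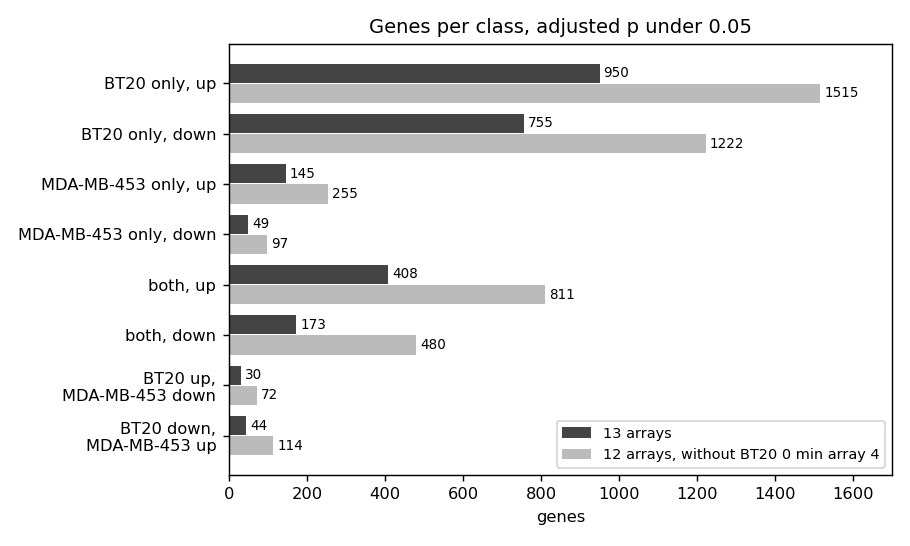
Bars give the number of genes in each of the 8 classes, in dark grey for the 13 arrays and in light grey without array 4 of BT20 at 0 min. BT20 only is the largest class in both fits, and every class is larger without array 4.

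Among genes that rose in BT20 and fell in MDA-MB-453, the heme-degrading enzyme HMOX1 came first when each gene was ranked by the smaller of its changes in the lines. HMOX1 stood in BT20 at 8.56, 8.48 and 8.61 at 24 h, against 6.23, 5.88, 6.08 and 6.09 at 0 min, and in MDA-MB-453 at 6.04, 5.63 and 5.58 at 24 h, against 7.20, 7.29 and 7.86 at 0 min. The arrays of the times did not overlap in either line, and the line with the higher level changed places: BT20 was above MDA-MB-453 at 24 h and below it at 0 min. The change was 2.48 ± 0.16 in BT20 and -1.70 ± 0.18 in MDA-MB-453, a difference of 4.18 ± 0.24 (limma, adjusted p = 4.71e-07). PIR, an iron-binding nuclear protein, rose by 1.57 ± 0.16 in BT20 and fell by 0.94 on the log2 scale in MDA-MB-453 (difference 2.51 ± 0.23, adjusted p = 1.5e-05).

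Among genes with a group mean of at least 4 in each line, the other 4 with the largest opposite movement of this kind have varied known roles. RARRES1, a retinoid-induced membrane protein, had log2 values of 11.35, 11.53 and 11.40 at 24 h, against 9.82, 9.78, 10.07 and 9.16 at 0 min in BT20, and of 8.72, 8.62 and 8.87 at 24 h, against 9.97, 10.01 and 9.94 at 0 min in MDA-MB-453. At 24 h every array of BT20 was above those of MDA-MB-453, and at 0 min the lines were near each other (difference 2.95 ± 0.25, adjusted p = 9.19e-06). EPB41L1, which links membrane proteins to the cytoskeleton, changed by 1.33 ± 0.22 in BT20 and -1.11 ± 0.24 in MDA-MB-453. AQP3, a channel for water and glycerol, changed by 1.11 ± 0.14 in BT20 and -0.81 ± 0.15 in MDA-MB-453. RAB31, a small GTPase of membrane traffic, changed by 0.93 ± 0.12 in BT20 and -1.31 ± 0.12 in MDA-MB-453, where its level at 24 h was under 4. The difference between the lines was called for EPB41L1, AQP3 and RAB31 in each of the 26 alternative fits. That call tests the difference and not the fall in MDA-MB-453. The other probe sets tested changed there by -0.40 and -0.13 for RAB31, -0.84 and -0.26 for EPB41L1, and -0.45 and -0.52 for AQP3.

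S100A8, a calcium-binding protein of inflammation, had the largest fall of any opposite gene, and was picked once its values were known. Its log2 values were 12.36, 12.34 and 12.36 at 24 h, against 11.91, 11.85, 11.83 and 10.72 at 0 min in BT20, and 3.61, 2.99 and 3.35 at 24 h, against 7.65, 7.68 and 7.15 at 0 min in MDA-MB-453. In MDA-MB-453 it was under 4 on each array at 24 h and above 7 on each at 0 min, while BT20 was high throughout, with array 4 the lowest. The changes were 0.78 ± 0.27 in BT20, or 0.49 without array 4, and -4.18 ± 0.29 in MDA-MB-453. Its partner S100A9 was not called in BT20 (0.23 ± 0.13) and fell in MDA-MB-453 close to the background (-1.17 ± 0.14). S100P, another member of the family, rose in both lines, by 1.12 ± 0.10 in BT20 and by 4.15 ± 0.10 in MDA-MB-453.

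HMOX1, PIR, the aldo-keto reductase AKR1B10 and the pentose phosphate enzyme TKT are all listed among genes linked to the antioxidant factor NRF2, a list of 24 tested genes that was drawn up after these values were seen. Of the 24, 12 rose and 2 fell in BT20 (beside 22.8% and 16.9% of all genes), 1 rose and 4 fell in MDA-MB-453 (beside 5.86% and 2.54%), and the difference was higher in BT20 for 12 and lower for 1 (beside 9.42% and 8.55%). Those 4 genes were the opposite ones, or 6 with GCLM and TXNRD1 without array 4, although AKR1B10 was under 4 at both times in MDA-MB-453, so that its fall there lies within the background. The steroid-metabolising enzymes AKR1C1, AKR1C2 and AKR1C3 rose in BT20 by 1.81, 1.93 and 2.48 and were at -0.38, -0.40 and -0.35 in MDA-MB-453, where they were under 4 and not called. Near-identical copies can share probes, so these 3 are not independent. NQO1, a quinone reductase often used to read the factor, was not called in either line (0.08 ± 0.09 and -0.11 ± 0.09). The 1 gene that ran the other way, the cystine transporter SLC7A11, rose in MDA-MB-453 only (BT20 0.16 ± 0.12, MDA-MB-453 1.50 ± 0.13).

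Metallothioneins, small proteins that bind zinc and copper, went the other way. MT1F had log2 values of 10.17, 10.20 and 10.20 at 24 h, against 12.32, 12.40, 12.35 and 12.24 at 0 min in BT20, and of 9.83, 9.73 and 10.18 at 24 h, against 8.67, 9.16 and 8.69 at 0 min in MDA-MB-453. MT1X had 10.51, 10.64 and 10.54 at 24 h, against 12.53, 12.56, 12.37 and 12.55 at 0 min in BT20, and 11.12, 10.80 and 11.51 at 24 h, against 10.52, 10.34 and 9.99 at 0 min in MDA-MB-453. For both genes the lines were closer together at 24 h than at 0 min, with no overlap between the times in either line. MT1F differed by -3.21 ± 0.20 (adjusted p = 9.14e-07) and MT1X by -2.80 ± 0.24 (adjusted p = 8.47e-06).

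With the zinc-sensing factor MTF1 there are 8 tested genes in this family, a group also formed after its values were seen. Of these, 7 fell in BT20 (beside 16.9% of all genes) and 6 rose in MDA-MB-453 (beside 5.86%). With or without array 4, 6 were opposite (0.363% of all genes were, with all arrays): MT1F, MT1G, MT1H, MT1HL1, MT1X and MT2A. MT1E fell in BT20 (-1.40 ± 0.25) and was not called in MDA-MB-453 (0.62 ± 0.27), and MTF1 itself was called in neither line (difference 0.09 ± 0.40), though without array 4 it rose in BT20 only. The fall in BT20 ran between -1.26 for MT2A and -2.14 for MT1F, and the rise in MDA-MB-453 between 0.64 for MT2A and 1.08 for MT1F. The coding sequences are nearly identical, so probe sets of the family can cross-hybridise and the 7 genes are not independent readings.

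Promoters of the metallothioneins carry metal response elements, to which MTF1 binds. MT1X (chr16:56682220-56682519, plus strand) and MT2A (chr16:56608334-56608633, plus strand) are shown, because both fell in BT20 and rose in MDA-MB-453. Sequences are RefSeq's on GRCh38.p14, 250 bases before to 50 after the annotated start, written 5′ to 3′ on the gene's strand, with matches to TGCACNC or TGCGCNC on either strand in capitals, joined where they overlap.
MT1X: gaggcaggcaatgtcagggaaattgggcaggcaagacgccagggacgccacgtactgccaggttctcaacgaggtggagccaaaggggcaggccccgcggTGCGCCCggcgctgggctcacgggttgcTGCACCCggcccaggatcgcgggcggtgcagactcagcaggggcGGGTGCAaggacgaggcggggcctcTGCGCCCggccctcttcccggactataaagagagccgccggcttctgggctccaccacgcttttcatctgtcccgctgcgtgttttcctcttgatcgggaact
MT2A: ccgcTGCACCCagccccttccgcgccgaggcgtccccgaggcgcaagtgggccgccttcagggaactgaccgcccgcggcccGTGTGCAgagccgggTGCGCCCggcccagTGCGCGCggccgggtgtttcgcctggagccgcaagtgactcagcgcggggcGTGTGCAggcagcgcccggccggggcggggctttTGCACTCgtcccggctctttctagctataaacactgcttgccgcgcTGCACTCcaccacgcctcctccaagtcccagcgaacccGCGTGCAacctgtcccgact
MT1X had 4 matches and MT2A had 8, and the third metallothionein with a sequence in the table, MT1H, had 8. The letters are common: 39.4% of the promoters of the 9918 tested genes with a sequence held at least 1 match.

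The remaining genes named for a fall in BT20 and a rise in MDA-MB-453 were DSE, IL18, ARHGAP42, STYK1 and PRSS23. IL18, an inflammatory cytokine, had log2 values of 8.18, 8.42 and 8.38 at 24 h, against 10.54, 10.49, 11.21 and 9.82 at 0 min in BT20, and of 6.39, 6.50 and 6.44 at 24 h, against 4.85, 5.30 and 5.47 at 0 min in MDA-MB-453. BT20 stayed above MDA-MB-453 at both times, and the gap between the lines narrowed (-3.42 ± 0.37, adjusted p = 5.43e-05). ARHGAP42, a GTPase-activating protein, changed by -2.56 ± 0.19 in BT20 and 1.15 ± 0.21 in MDA-MB-453. BT20 was the lower line at 24 h and the higher at 0 min. PRSS23, a secreted serine protease, changed by -1.11 ± 0.11 in BT20 and 1.21 ± 0.11 in MDA-MB-453. DSE, an epimerase of dermatan sulfate synthesis, changed by -1.99 ± 0.32 and 1.33 ± 0.34, and the kinase-like protein STYK1 by -1.13 ± 0.26 and, at a level near 4, 1.21 ± 0.28, BT20 first. Another STYK1 probe set changed by 0.26 in MDA-MB-453. The opposite call itself, which needs all 3 tests, was kept for DSE in 19 and for STYK1 in 20 of the 26 fits with other settings, and for 17 of the 74 opposite genes in each of the 26.

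**Figure D3:**
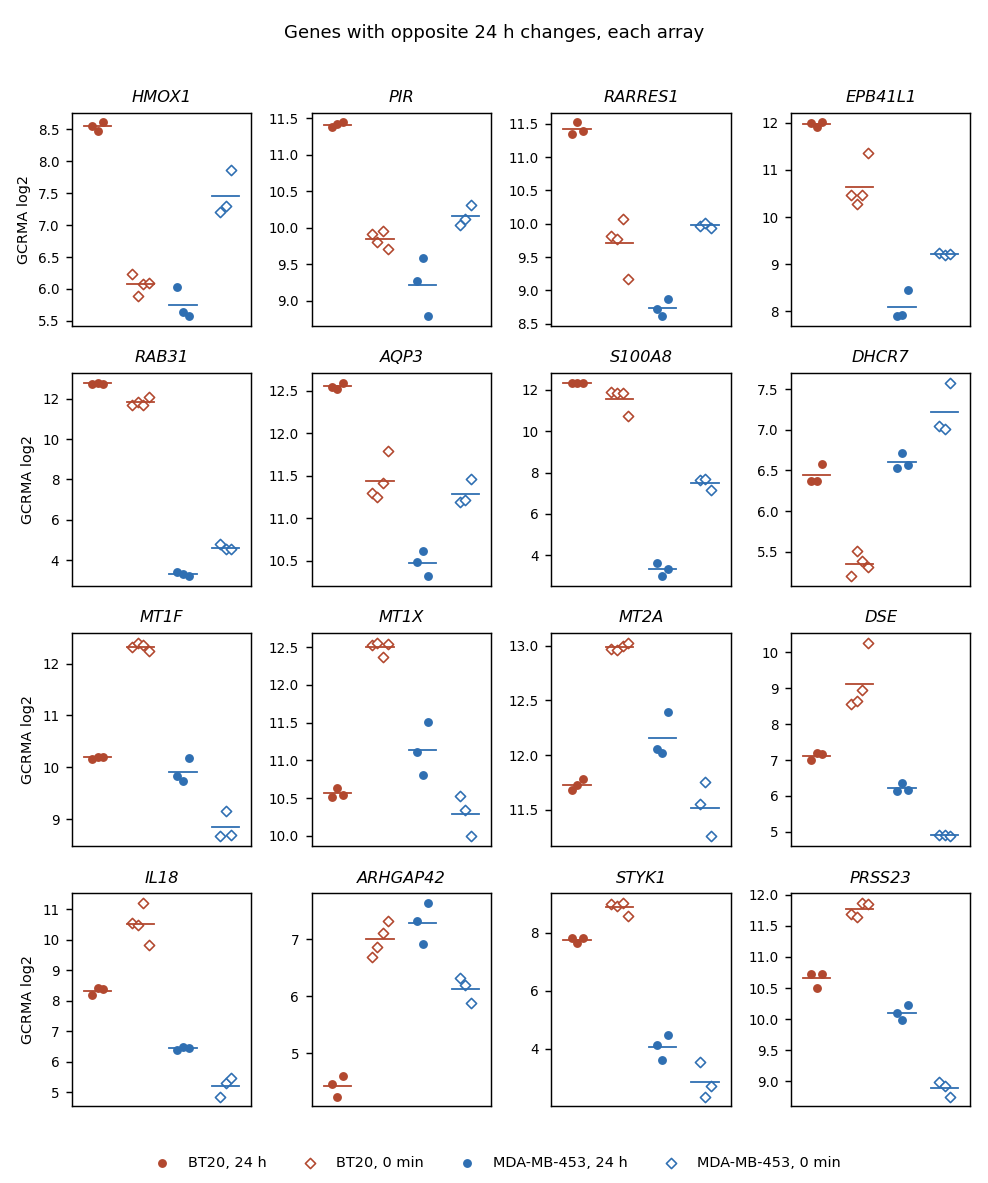
Log2 GCRMA values on each array for 16 genes with opposite changes, with BT20 in red and MDA-MB-453 in blue, filled circles for 24 h, open diamonds for 0 min and a line at each group mean; the vertical axes differ between panels. In the first 8 panels filled red points lie above open red ones and filled blue points below open blue ones, and in the last 8 panels the reverse holds.

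Of the lists examined, the transcripts known as ERK output had the largest median change. Of 22 tested, 21 fell in BT20 (beside 16.9% of all genes) and none rose (beside 22.8%). None rose at an unadjusted limma p under 0.05 either. In MDA-MB-453 2 fell (beside 2.54%), and 7 did at an unadjusted p under 0.05. The difference was lower in BT20 for 16, beside 8.55% of all genes. The median change was -2.38 in BT20 and -0.24 in MDA-MB-453. Without array 4, 22 fell in BT20 (beside 2743 of all 12113 genes) and 6 fell in MDA-MB-453 (beside 769). The difference was then lower in BT20 for 17, beside 14.9% of all genes.

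DUSP6, a phosphatase that switches ERK off, had log2 values of 2.96, 3.03 and 3.81 at 24 h, against 9.02, 8.94, 9.39 and 9.42 at 0 min in BT20, and of 12.29, 12.13 and 12.30 at 24 h, against 12.42, 12.42 and 12.44 at 0 min in MDA-MB-453. In BT20 it dropped under 4 at 24 h, and in MDA-MB-453 it stayed above 12 on every array. The difference was -5.74 ± 0.28 (adjusted p = 1.83e-07), with -5.93 ± 0.19 in BT20 and -0.19 ± 0.21 in MDA-MB-453. SPRY4, a feedback inhibitor of RAS signalling, behaved likewise, at 2.31, 2.25 and 2.89 at 24 h, against 7.15, 7.28, 7.13 and 7.45 at 0 min in BT20 and 9.10, 9.29 and 8.85 at 24 h, against 9.22, 9.13 and 9.15 at 0 min in MDA-MB-453, so that the line with more of both transcripts at 0 min was the one where neither was called. The ephrin receptor EPHA4 fell by 4.58 on the log2 scale in BT20 (MDA-MB-453 -0.13 ± 0.21). The AP-1 subunit FOSL1 fell by 5.98 in BT20, whereas in MDA-MB-453 it was under 4 throughout, so no fall could be read there. The same holds for the EGFR ligand HBEGF, which fell by 3.23 in BT20.

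MYC and EGR1 were among the members whose change was not called different between the lines. EGR1, an immediate early factor, fell in both (-0.80 ± 0.24 in BT20, or -0.52 without array 4, and -0.95 ± 0.26 in MDA-MB-453), and its difference of 0.15 ± 0.35 was 0.43 without array 4, not called either time. MYC had log2 values of 6.15, 6.91 and 6.36 at 24 h, against 7.77, 8.67, 7.94 and 11.19 at 0 min in BT20, and of 9.03, 9.38 and 8.55 at 24 h, against 10.42, 10.76 and 10.53 at 0 min in MDA-MB-453. Array 4 was the highest of the BT20 arrays by far, and the times did not overlap in either line, and the change was called in BT20 (-2.42 ± 0.64) and not in MDA-MB-453 (-1.59 ± 0.68). Without array 4 MYC fell in both lines (adjusted p = 0.000331 in BT20 and 0.00228 in MDA-MB-453). The difference for MYC was -0.83 ± 0.94 (adjusted p = 0.615) and -0.07 without array 4 (adjusted p = 0.92). Cyclin D1, CCND1, fell in BT20 only (-1.14 ± 0.11, against -0.29 ± 0.11 in MDA-MB-453, difference -0.86 ± 0.15, adjusted p = 0.00211).

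Other genes with the largest fall in BT20 only, while measured in both lines, were PLPP4, a lipid phosphatase (-4.91 ± 0.22), the neuronal membrane protein SLITRK6 (-4.17 ± 0.26) and the raft protein RFTN1 (-3.58 ± 0.36). Their changes in MDA-MB-453 were -0.09 ± 0.24, 0.23 ± 0.28 and 0.66 ± 0.38. Among genes that MDA-MB-453 hardly had, HSD3B1, a steroid-synthesis enzyme, stood at 4.14, 3.76 and 4.19 at 24 h, against 11.11, 11.04, 10.95 and 11.29 at 0 min in BT20 and at 2.75 or lower on the MDA-MB-453 arrays. The change of HSD3B1, -7.07, left it near 4 at 24 h. CEMIP, which breaks down hyaluronan, fell by 6.12 and LINC01127 by 6.49.

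Transcripts that rose in BT20 only included VTCN1, an immune checkpoint ligand, at 8.36, 8.38 and 8.07 at 24 h, against 2.04, 2.48, 2.21 and 2.56 at 0 min in BT20 and 5.09, 4.57 and 5.19 at 24 h, against 5.30, 4.85 and 4.89 at 0 min in MDA-MB-453. In BT20 it was above MDA-MB-453 at 24 h and under 4 at 0 min, and the MDA-MB-453 arrays of the times overlapped (difference 6.01 ± 0.27, adjusted p = 1.06e-07). SELENOP, a selenium carrier, rose by 5.37 ± 0.23 in BT20 (MDA-MB-453 0.17 ± 0.25), and its 24 h level there, a mean of 10.2, was still under the 12.5 of MDA-MB-453 at 24 h. ID1, an inhibitor of helix-loop-helix factors, rose by 4.10 ± 0.35, the phospholipase PLAAT2 by 3.93 ± 0.16, the membrane transporter SIDT1 by 3.73 ± 0.29 and MAB21L4 by 4.06 ± 0.22. MAB21L4 in BT20 at 24 h came to the level that MDA-MB-453 had at both times. Of genes hardly present in MDA-MB-453, ALDH1L2, a folate enzyme of mitochondria, rose by 5.04 ± 0.18, the acyltransferase GLYATL2 by 3.96 ± 0.25 and the zinc importer SLC39A2 by 3.94 ± 0.21.

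Most interferon-stimulated genes tested rose in BT20. Of 26, 17 rose and 3 fell in BT20 (beside 22.8% and 16.9% of all genes), and 3 rose in MDA-MB-453 (beside 5.86%). The difference was higher in BT20 for 10 and lower for 3 (beside 9.42% and 8.55% of all genes). Their median change was 0.91 in BT20 and 0.15 in MDA-MB-453. Without array 4, 18 rose in BT20 and 7 in MDA-MB-453 (beside 3484 and 1360 of all 12113 genes). In both lines 5 then rose (beside 811), against 1 with all arrays (beside 3.37%). The difference was then higher in BT20 for 12 and lower for 3 (beside 16.8% and 14.9%). PSMB9, a subunit of the immunoproteasome, had log2 values of 10.81, 10.97 and 10.90 at 24 h, against 9.11, 9.02, 8.96 and 9.04 at 0 min in BT20, and was under 4 on each MDA-MB-453 array. PARP9 rose by 2.16 ± 0.15 in BT20 and was measured in both lines (MDA-MB-453 0.26 ± 0.16), the transcription factor IRF1 by 1.75 ± 0.15 and the ubiquitin enzyme UBE2L6 by 1.98 ± 0.17. The list did not move as 1: IFIT1 fell in BT20 (-0.51) and rose in MDA-MB-453 (0.78), USP18 fell in BT20 (-1.05), and ISG20 rose in MDA-MB-453 only (0.93).

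Genes linked to FOXO factors and growth arrest rose in both lines in part. Of 27 tested, 17 rose and 3 fell in BT20 (beside 22.8% and 16.9% of all genes). In MDA-MB-453 7 rose (beside 5.86%), 6 of them in both lines (beside 3.37%). Without array 4, 15 rose in MDA-MB-453 (beside 1360 of all 12113 genes) and 11 in both lines (beside 811). The difference was higher in BT20 for 7 and lower for 3 (beside 9.42% and 8.55%), and higher for 15 without array 4 (beside 16.8%). The median change was 0.79 in BT20 and 0.38 in MDA-MB-453. TSC22D3, a glucocorticoid- and FOXO-induced factor, rose by 4.04 ± 0.16 in BT20 and by 0.68 ± 0.17 in MDA-MB-453 (difference 3.35 ± 0.24, adjusted p = 2.18e-06). GADD45B, a stress-response protein, rose in BT20 only (2.48 ± 0.18, against -0.27 ± 0.20 in MDA-MB-453). YPEL2 rose by 4.51 ± 0.30 in BT20 and stood at 0.98 ± 0.32 in MDA-MB-453, where the times did not overlap but the call was missed (adjusted p = 0.0854), and without array 4 YPEL2 rose in both lines (adjusted p = 0.00322 in MDA-MB-453). IRS2, an adaptor of the insulin receptor, ran the other way, at -0.78 in BT20 and 0.66 in MDA-MB-453, where it lay near 4 and was not called. Without array 4 IRS2 rose in MDA-MB-453 (adjusted p = 0.0103) and so became opposite.

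Genes of cholesterol synthesis and uptake differed in favour of BT20. Of 14 tested genes 8 rose and 1 fell in BT20 (beside 22.8% and 16.9% of all genes). In MDA-MB-453 none rose and 1 fell (beside 5.86% and 2.54%), so the counts there are no result about the list. None rose there at an unadjusted limma p under 0.05 either. The difference was higher in BT20 for 6 (beside 9.42%), and for 7 without array 4 (beside 16.8%). The median change was 0.46 in BT20 and -0.11 in MDA-MB-453. DHCR7, the last enzyme of the pathway, was opposite, at 6.37, 6.38 and 6.58 at 24 h, against 5.20, 5.51, 5.38 and 5.31 at 0 min in BT20 and 6.53, 6.71 and 6.57 at 24 h, against 7.05, 7.01 and 7.58 at 0 min in MDA-MB-453, so that the lines began apart and met at 24 h (1.70 ± 0.21, adjusted p = 0.000121). The isomerase IDI1 (0.84 ± 0.11), the sterol sensor INSIG1 (1.28 ± 0.20) and the transcription factor SREBF2 (1.95 ± 0.26) rose in BT20 only.

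Regulators of cell death were called in both directions in either line. Of 29 tested, 8 rose and 5 fell in BT20, shares near the 22.8% and 16.9% of all genes, while 4 rose and 1 fell in MDA-MB-453 (beside 5.86% and 2.54%), so the counts are no result about the list. BMF, a BH3-only protein that promotes apoptosis, had log2 values of 7.96, 8.24 and 8.06 at 24 h, against 4.00, 3.95, 3.95 and 3.37 at 0 min in BT20, and of 3.77, 3.53 and 3.26 at 24 h, against 3.36, 3.15 and 3.03 at 0 min in MDA-MB-453, where it stayed at the background. PMAIP1, another BH3-only protein, rose in MDA-MB-453 only, with 8.67, 8.52 and 8.63 at 24 h, against 8.68, 8.77, 8.77 and 8.92 at 0 min in BT20, and 5.42, 4.49 and 5.48 at 24 h, against 3.67, 3.34 and 3.00 at 0 min in MDA-MB-453. BT20 had the higher PMAIP1 level at either time, and MDA-MB-453 at 24 h remained below it (difference -1.97 ± 0.32, adjusted p = 0.00111). Another PMAIP1 probe set changed by 0.19 in MDA-MB-453, so the rise there rests on 1 probe set. The apoptosis inhibitor BCL2 fell in BT20 (-2.25 ± 0.17) and was at 0.48 ± 0.18 in MDA-MB-453, not called. The death receptor TNFRSF10A fell in BT20 only (-1.77 ± 0.13), and its ligand TNFSF10 rose in MDA-MB-453 only (1.50 ± 0.19).

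Several regulators that carry apoptotic signals showed no called difference. BCL2L11, the BH3-only protein BIM, rose in BT20 (0.96 ± 0.20) and stood at 0.52 ± 0.21 in MDA-MB-453, with a difference of 0.44 ± 0.29 (adjusted p = 0.357); without array 4 it rose in both lines (adjusted p = 0.0053 in MDA-MB-453). BID, which joins death receptors to mitochondria, fell in both lines (-0.28 ± 0.10 in BT20 and -0.52 ± 0.11 in MDA-MB-453). The initiator caspase CASP8 differed by -0.03 ± 0.42 and its inhibitor CFLAR by 0.26 ± 0.40, neither of them called. CFLAR was called under 1 alternative, the mean of its probe sets (0.73, adjusted p = 0.0291). The cell cycle inhibitor CDKN1A differed by -0.78 ± 0.47 (adjusted p = 0.296), and without array 4, the lowest of its group, by -1.16 (adjusted p = 0.000803).

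MDA-MB-453 only held fewer genes. STC2, a secreted glycoprotein of the stress response, had log2 values of 11.14, 11.15 and 11.16 at 24 h, against 10.80, 10.80, 10.73 and 9.80 at 0 min in BT20, and of 9.79, 9.32 and 9.84 at 24 h, against 7.61, 7.11 and 6.47 at 0 min in MDA-MB-453. It was higher in BT20 throughout, where array 4 was the lowest, with a change of 0.62 ± 0.28 in BT20 (adjusted p = 0.108) and a rise of 2.59 ± 0.30 in MDA-MB-453. The lipid transporter ABCA5 rose by 1.20 ± 0.22, the RAB5 regulator RIN2 by 1.52 ± 0.19, the cyclin-dependent kinase CDK14 by 1.41 ± 0.19 and ZNF582-DT by 1.24 ± 0.18. Another probe set changed in MDA-MB-453 by 0.07 for CDK14 and by 0.24 for ZNF582-DT. Among genes that BT20 hardly had, the progestin receptor PAQR5 was at 2.30 or lower on the BT20 arrays and had 7.81, 8.32 and 8.17 at 24 h, against 4.86, 4.33 and 5.64 at 0 min in MDA-MB-453, a rise of 3.15 ± 0.27 there. The transcription factor CREB3L1 rose by 2.66 ± 0.22 and the secreted phospholipase PLA2G2A by 2.21 ± 0.20.

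Falls in MDA-MB-453 only were led by DOCK2, an activator of RAC in blood cells that BT20 hardly had. It stood at 3.50, 3.59 and 3.11 at 24 h, against 6.58, 6.99 and 7.30 at 0 min in MDA-MB-453, so the 24 h arrays were under 4 and the 0 min arrays above 6 (change -3.56 ± 0.21, difference 3.25 ± 0.28, adjusted p = 1.02e-05). The carnitine-synthesis enzyme BBOX1 fell by 2.13 and LINC01208 by 1.91. Of genes measured in both lines, C2CD4A, RNF145, L3HYPDH and TAGLN2 had BT20 changes of 0.11, 0.23, 0.16 and -0.07, none called. C2CD4A fell by 1.59, the ubiquitin ligase RNF145 by 1.24, L3HYPDH by 1.15 and the actin-binding protein TAGLN2 by 1.08 in MDA-MB-453. The other 2 genes of that rule, S100A6 (difference 1.01 ± 0.27, adjusted p = 0.023) and H4C11 (difference 0.94 ± 0.26, adjusted p = 0.0251), lost their call when single arrays were left out. For S100A6 these were array 2 or 3 of BT20 at 24 h and array 1 or 2 of MDA-MB-453 at 0 min (0.96 to 1.00 without them), and its mean over probe sets gave 0.35 (adjusted p = 0.205). For H4C11 they were array 2 or 3 of BT20 at 24 h, array 3 of MDA-MB-453 at 24 h and array 2 or 3 of MDA-MB-453 at 0 min (0.81 to 0.94). With the mean of its probe sets the difference for RNF145 was 0.62 and was not called (adjusted p = 0.257).

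**Figure D4:**
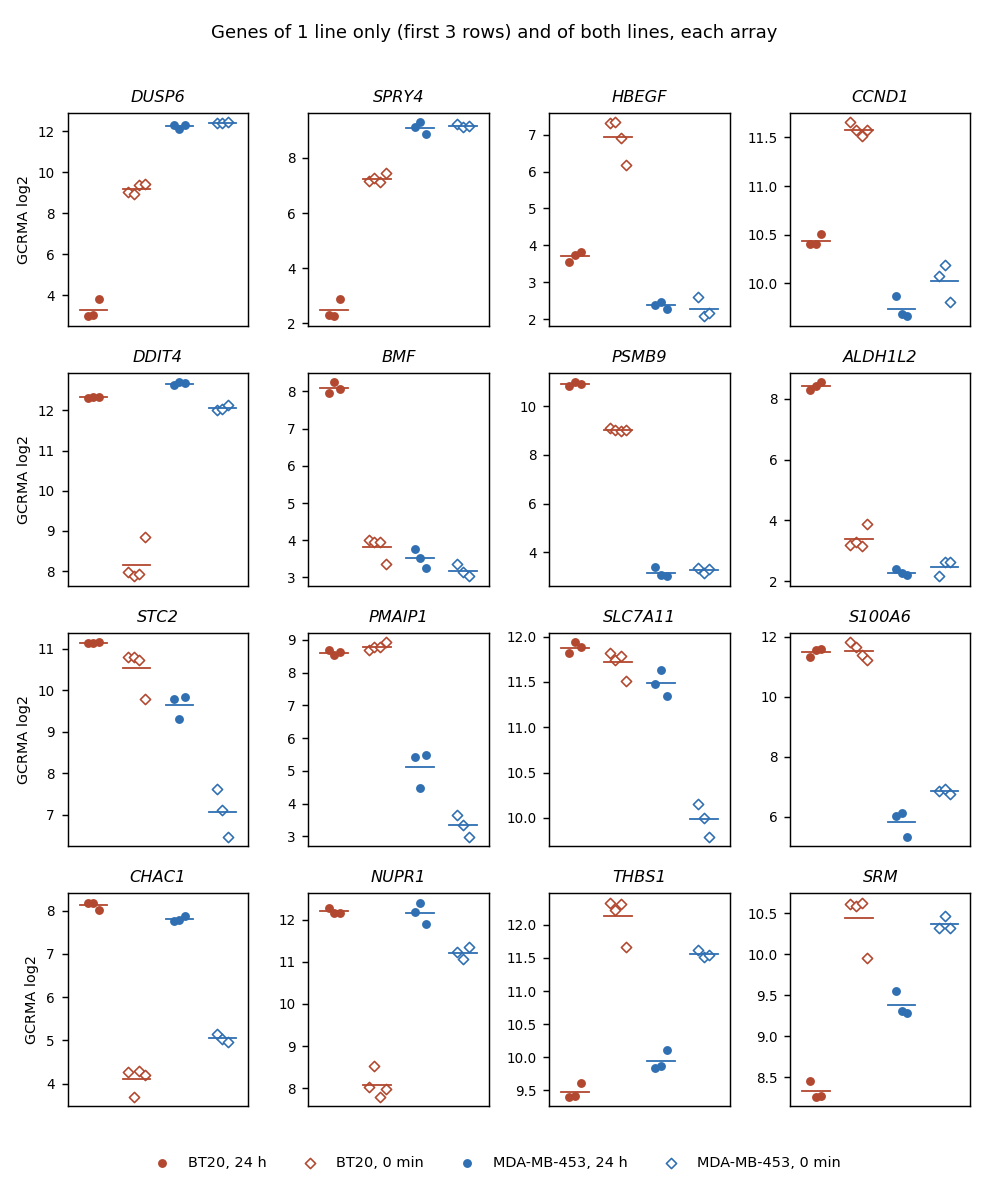
Log2 GCRMA values on each array for 16 genes, drawn as in the plot of opposite genes; vertical axes differ between panels. In the first 8 panels the red groups separate and the blue ones lie close together or overlap, in the next 4 the blue groups separate and the red ones lie close together or overlap, and in the last 4 both lines move the same way.

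The response to amino acid and endoplasmic reticulum stress, run by the factor ATF4, held more genes that rose in both lines than any other list examined. Of 32 tested genes 20 rose in BT20 (beside 22.8% of all genes), 15 rose in MDA-MB-453 (beside 5.86%) and 12 rose in both (beside 3.37%); none fell in either line (none in BT20 and 1 in MDA-MB-453 at an unadjusted p under 0.05, by limma). The difference was higher in BT20 for 8 and lower for 3 (beside 9.42% and 8.55% of all genes), the latter near that share. The median change was 0.60 in BT20 and 0.45 in MDA-MB-453. Without array 4, 23 rose in BT20 and 19 in MDA-MB-453 (beside 3484 and 1360 of all 12113 genes). In both lines 15 then rose (beside 811) and 1 fell (beside 480). The difference was then higher in BT20 for 11 and lower for 4 (beside 16.8% and 14.9%). CHAC1, which breaks down glutathione, had log2 values of 8.17, 8.18 and 8.02 at 24 h, against 4.26, 3.71, 4.29 and 4.21 at 0 min in BT20, and of 7.75, 7.78 and 7.86 at 24 h, against 5.14, 5.04 and 4.96 at 0 min in MDA-MB-453, so both lines started low and ended near 8. It rose more in BT20, by 1.26 ± 0.20 (adjusted p = 0.000869).

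The shared rise was not equal from gene to gene. NUPR1, a chromatin-bound stress protein, rose by 4.11 ± 0.17 in BT20 and by 0.94 ± 0.18 in MDA-MB-453; BT20 was the lower line at 0 min, and both stood near 12 at 24 h. DDIT4, an inhibitor of mTORC1, likewise rose in BT20 (4.17 ± 0.20) to the level of MDA-MB-453, which had 12.62, 12.70 and 12.69 at 24 h, against 12.01, 12.04 and 12.12 at 0 min and was not called (adjusted p = 0.103) although its times did not overlap; without array 4 DDIT4 rose in both lines (adjusted p = 0.000224 in MDA-MB-453). Asparagine synthetase, ASNS, rose by 2.54 ± 0.12 in BT20 and by 1.85 ± 0.13 in MDA-MB-453. SESN2 rose by 2.58 and 1.65, ATF3 by 1.54 and 1.33, and DDIT3 by 1.11 and 1.10, BT20 first. Serine synthesis divided: PSAT1 rose in BT20 only (0.94), while PHGDH rose less in BT20 (0.86) than in MDA-MB-453 (1.75). The chaperone HSPA5, a reader of the unfolded protein response, was not called (-0.02 in BT20, -0.11 in MDA-MB-453).

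The promoters of CHAC1 (chr15:40953221-40953520, plus strand) and ASNS (chr7:97872359-97872658, minus strand) are shown because both genes rose in both lines and hold the composite element TGATGNAA, to which ATF4 binds with C/EBP partners. Matches on either strand are in capitals.
CHAC1: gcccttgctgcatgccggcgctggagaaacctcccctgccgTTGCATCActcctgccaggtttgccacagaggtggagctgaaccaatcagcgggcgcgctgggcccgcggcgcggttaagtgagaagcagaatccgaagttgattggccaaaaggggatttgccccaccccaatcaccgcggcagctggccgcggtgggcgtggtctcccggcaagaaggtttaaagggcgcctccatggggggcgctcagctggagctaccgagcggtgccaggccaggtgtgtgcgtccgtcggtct
ASNS: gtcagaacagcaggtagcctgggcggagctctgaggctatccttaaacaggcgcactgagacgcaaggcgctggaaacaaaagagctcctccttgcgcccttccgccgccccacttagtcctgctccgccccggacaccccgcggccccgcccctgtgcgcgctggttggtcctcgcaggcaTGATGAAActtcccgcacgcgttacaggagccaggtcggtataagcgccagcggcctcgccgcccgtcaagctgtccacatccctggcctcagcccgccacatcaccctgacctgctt
Each had 1 match. In this list 5 of 26 promoters (19.2%) held the letters, the others being ATF3, HERPUD1 and SLC3A2, against 177 of 9918 (1.78%) over all tested genes. The list was chosen as linked to ATF4, so a high share there may be built in and is not a result of these data. The share was 15 of 340 (4.41%) for genes that rose in both lines and 5 of 115 (4.35%) for those that rose in MDA-MB-453 only.

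Outside that list, 4 genes were named for their rise in both lines. FAXDC2, a fatty acid hydroxylase domain protein, rose by 2.61 ± 0.23 in BT20 and by 4.79 ± 0.24 in MDA-MB-453. KLHDC9 rose by 2.45 in each line, and ADHFE1, a mitochondrial dehydrogenase, by 2.40 ± 0.23 in BT20 and 2.65 ± 0.24 in MDA-MB-453. CYP1A1, the classic target of the aryl hydrocarbon receptor, rose by 2.77 ± 0.34 in BT20, where array 4 was the lowest at 3.64, and by 2.30 ± 0.36 in MDA-MB-453.

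Genes of ribosome biogenesis and known MYC targets, held in 1 list, fell together in BT20 and in part in MDA-MB-453. Of 22 tested genes 18 fell in BT20 (beside 16.9% of all genes) and 9 in MDA-MB-453 (beside 2.54%), those 9 in both lines (beside 1.43%). None rose in either line (none at an unadjusted p under 0.05 either, by limma). The difference was lower in BT20 for 6 (beside 8.55%). The median change was -0.99 in BT20 and -0.60 in MDA-MB-453. Without array 4 the counts of falls were 21 in BT20 and 17 in MDA-MB-453 (beside 2743 and 769 of all 12113 genes). SRM, the spermidine synthase, had log2 values of 8.46, 8.27 and 8.28 at 24 h, against 10.62, 10.59, 10.63 and 9.95 at 0 min in BT20, and of 9.55, 9.31 and 9.28 at 24 h, against 10.31, 10.46 and 10.32 at 0 min in MDA-MB-453. The times did not overlap in either line and the fall was larger in BT20 (-1.13 ± 0.23, adjusted p = 0.00499). MRTO4, which matures the large ribosomal subunit, fell by 1.75 in BT20 and by 1.22 in MDA-MB-453 (difference -0.52 ± 0.23, not called, and -0.62 without array 4, adjusted p = 0.0407), and UTP20, of the small subunit processome, by 1.25 and 1.33, BT20 first.

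The E-box CACGTG, bound by MYC and by USF factors, is marked in the promoters of SRM (chr1:11059969-11060268, minus strand) and MRTO4 (chr1:19251555-19251854, plus strand), which fell in both lines.
SRM: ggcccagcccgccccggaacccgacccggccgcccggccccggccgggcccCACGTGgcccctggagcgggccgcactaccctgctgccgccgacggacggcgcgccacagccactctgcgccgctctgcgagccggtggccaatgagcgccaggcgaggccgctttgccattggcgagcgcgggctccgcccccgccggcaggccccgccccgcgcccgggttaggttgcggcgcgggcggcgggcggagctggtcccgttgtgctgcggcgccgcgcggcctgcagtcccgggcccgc
MRTO4: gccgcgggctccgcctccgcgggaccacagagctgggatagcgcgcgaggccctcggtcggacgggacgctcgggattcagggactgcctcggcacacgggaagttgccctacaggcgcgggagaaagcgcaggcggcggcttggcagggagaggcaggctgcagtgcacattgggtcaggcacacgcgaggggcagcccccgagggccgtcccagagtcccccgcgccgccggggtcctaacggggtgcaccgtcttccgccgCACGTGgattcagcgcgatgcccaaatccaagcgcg
The motif is its own reverse complement and each promoter had 1 match. It was in 8 of 18 promoters of the list (44.4%) and in 35 of 145 for genes that fell in both lines (24.1%), against 1025 of 9918 (10.3%) over all tested genes. The list was chosen to hold MYC targets, so a high share there may be built in and is not a result of these data. Its share was 8.87% for rises and 11.4% for falls in BT20 only, 6.96% for rises and 14.3% (5 of 35) for falls in MDA-MB-453 only, and 7.94% for rises in both lines. For opposite genes it was 12.5% (3 of 24) where BT20 rose and 8.57% (3 of 35) where BT20 fell. A match describes the letters and does not show that a factor was bound.

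Beyond that list, THBS1, a matrix protein, and GPAT3, an acyltransferase of triglyceride synthesis, fell in both lines. THBS1 had 9.41, 9.42 and 9.61 at 24 h, against 12.34, 12.22, 12.31 and 11.67 at 0 min in BT20 and 9.83, 9.87 and 10.11 at 24 h, against 11.62, 11.52 and 11.54 at 0 min in MDA-MB-453, a larger fall in BT20 (-1.04 ± 0.22, adjusted p = 0.00661). For the other THBS1 probe sets tested the difference was -0.18, -0.05, -1.06, -2.06, 0.32 and 0.10, so the larger fall was not seen on each. GPAT3 fell by 2.23 in BT20 and by 1.40 in MDA-MB-453. KCTD12 fell by 1.53 in BT20 and 1.39 in MDA-MB-453, its BT20 level being under 4 at 24 h. The difference for KCTD12 was -0.14 ± 0.30, and it turned to 1.23 (adjusted p = 0.00797) when values under 4 were set to 4.

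Genes for DNA replication fell in BT20, and mitotic genes did not follow them. Of 35 tested replication and G1/S genes 27 fell in BT20 (beside 16.9% of all genes) and none rose (beside 22.8%). In MDA-MB-453 none rose or fell (beside 5.86% and 2.54%), and 3 fell at an unadjusted limma p under 0.05. Without array 4, 3 fell in MDA-MB-453 (beside 769 of all 12113 genes), and these fell in both lines (beside 480). The difference was lower in BT20 for 7 (beside 8.55%), and for 17 without array 4 (beside 14.9%). The median change was -0.56 in BT20 and -0.08 in MDA-MB-453. POLE2, a subunit of a replicative polymerase, fell by 0.85 in BT20 and was at 0.01 ± 0.12 in MDA-MB-453. Of 32 mitotic genes 7 rose in BT20, among them the centromeric histone CENPA (0.78), a share near the 22.8% of all genes. None fell in BT20, beside 16.9% of all genes. At an unadjusted limma p under 0.05, 13 rose and none fell. The difference was higher in BT20 for 3 (beside 9.42%). Without array 4, 15 rose in BT20 (beside 3484 of all 12113 genes), and the difference was higher for 12 (beside 16.8%). With all arrays none was called in MDA-MB-453 (1 fell at an unadjusted p under 0.05).

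Neither housekeeping list held a called gene. Of 15 ribosomal protein genes none was called, or had an unadjusted limma p under 0.05, in either line or for the difference. Of 23 respiratory chain genes none was called, with an unadjusted limma p under 0.05 for 2, both higher, in BT20 and for no gene in MDA-MB-453. Several members of these and other lists were not analysed here.

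**Figure D5:**
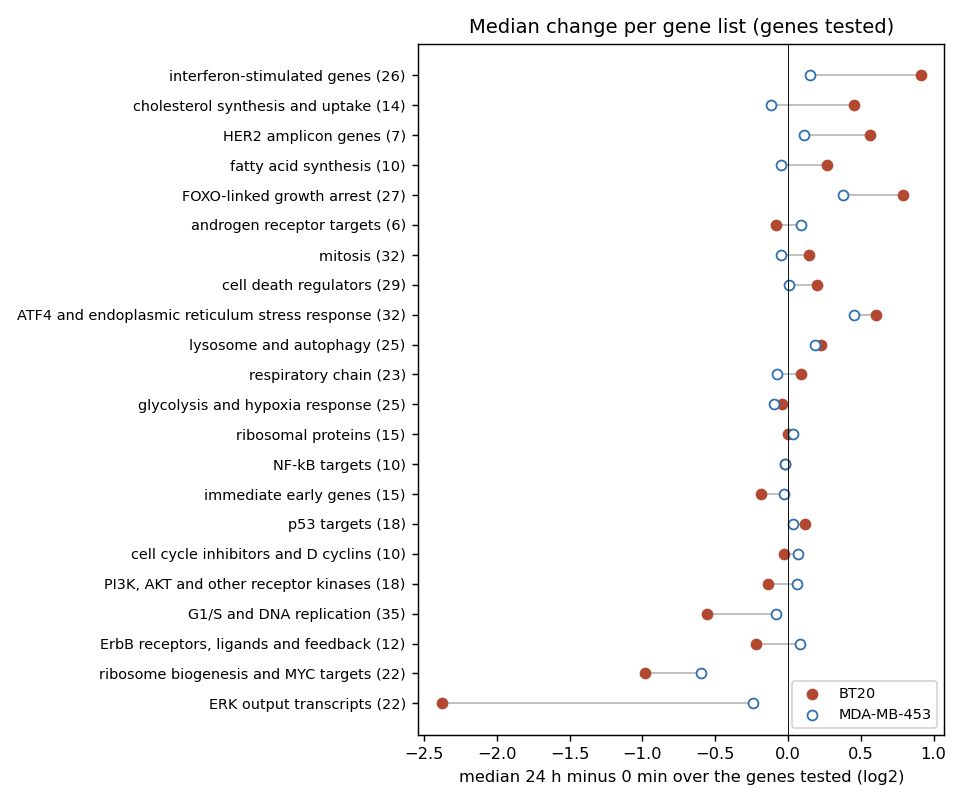
Median change (24 h minus 0 min, log2) over the tested genes of 22 lists, with filled red points for BT20 and open blue points for MDA-MB-453, sorted by the median difference between the lines; numbers in brackets are genes tested. ERK output lies at -2.38 in BT20 and -0.24 in MDA-MB-453, while the ATF4 and ribosome biogenesis lists lie on the same side of 0 in both lines.

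ErbB receptors, their ligands and feedback regulators were examined as a list of 12 tested genes. In BT20 3 rose and 6 fell (beside 22.8% and 16.9% of all genes), and in MDA-MB-453 2 rose and 1 fell (beside 5.86% and 2.54%). The difference was higher in BT20 for 2 and lower for 5 (beside 9.42% and 8.55%). TGFA, an EGFR ligand, was opposite, with 9.93, 10.07 and 10.00 at 24 h, against 11.07, 10.92, 11.05 and 11.24 at 0 min in BT20 and 4.44, 4.41 and 4.61 at 24 h, against 3.94, 4.00 and 4.12 at 0 min in MDA-MB-453, where it lay close to the background (-1.54 ± 0.15, adjusted p = 2.2e-05). The other TGFA probe sets tested changed by -1.46 and -1.82 in BT20 and by -0.28 and -0.30 in MDA-MB-453. The opposite call for TGFA therefore rests on 1 probe set. EREG fell in BT20 (-2.45 ± 0.40) and was under 4 in MDA-MB-453, and the ligand BTC rose in MDA-MB-453 only (1.42). ERBB3 rose in BT20 only (0.75 ± 0.09, against 0.16 ± 0.10 in MDA-MB-453, adjusted p of the difference 0.0106); with the mean of its probe sets the difference was 0.27 and not called (adjusted p = 0.351).

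ERBB2 had log2 values of 9.42, 9.51 and 9.43 at 24 h, against 8.36, 8.67, 7.93 and 7.64 at 0 min in BT20, and of 11.12, 11.43 and 10.69 at 24 h, against 10.88, 10.95 and 11.36 at 0 min in MDA-MB-453. It rose in BT20 by 1.31 ± 0.24 and stayed below MDA-MB-453, whose times overlapped (difference 1.29 ± 0.35, adjusted p = 0.0221). The difference was no longer called without array 2 of BT20 at 24 h (1.27, adjusted p = 0.0534), array 3 of MDA-MB-453 at 24 h (1.10, 0.0544) or array 3 of MDA-MB-453 at 0 min (1.15, 0.0598), and with the mean of its probe sets it was 0.36 (adjusted p = 0.246). EGFR, the drug's target, had 11.83, 11.88 and 11.81 at 24 h, against 12.49, 12.46, 12.40 and 12.16 at 0 min in BT20 and was under 4 on every MDA-MB-453 array. Its fall of -0.54 ± 0.13 in BT20 gave a difference of -0.58 ± 0.19 at an adjusted p of 0.0495. That call was lost in 18 of 26 alternatives, with adjusted p between 0.00778 and 0.317 over them; it was kept without array 4 of BT20 at 0 min or array 2 of MDA-MB-453 at 24 h and lost, at -0.46 to -0.65, without any other array.

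The third line of the series, labelled MCF (3 arrays at 24 h and 3 at 0 min), was fitted alone, since its arrays were on another scale. Only 1 of 12113 genes was called in it, the ETS factor ETV5 (-2.61 ± 0.16, adjusted p = 0.0313), which fell by 1.62 in BT20 and was at -0.17 in MDA-MB-453, not called. The median MCF change of the genes that rose in BT20 only was 0.08, and of those that fell -0.16, against 0.22 for genes that rose in both lines and -0.25 for those that fell in both. The values for single genes were -1.56 for DUSP6, -1.64 for SPRY4, 2.09 for CHAC1, 0.14 for HMOX1 and 1.38 for MT1F, none of them called there.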

How the data were processed

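The data are 25 Affymetrix arrays, of which 13 were compared here. The deposited values are log2 values per probe set made by the authors with GCRMA 2.20.0 in R 2.11.1, per the submitters' processing notes; GCRMA subtracts a sequence-dependent background, applies quantile normalization across arrays and combines the probes of a set. Of 54613 probe sets, 41091 carried 1 gene symbol, 1801 several and 11721 none in the annotation used.

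No further normalization was applied, and R 4.3.3 was used. Each gene was represented by 1 probe set, namely that of highest average on the 13 arrays among those carrying a single symbol. Group means of 4 groups were fitted with limma 3.58.1 (9 residual degrees of freedom), with empirical Bayes moderation and Benjamini-Hochberg adjustment over the 12113 genes tested, for the change in each line and for their difference. The method was tested on simulated data. The number of arrays limits the precision.

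The members, the gene lists and the rule for naming genes were chosen with earlier results of these data known. Named were, per class of 1 line, the 6 genes with the largest difference measured in both lines (with a highest group mean of at least 6 and the same class without array 4 of BT20 at 0 min) and the 3 not measured in the other line; the 5 per direction that changed most in both lines; the 6 per direction that moved most in opposite directions; up to 4 per list with the smallest p; and 13 fixed genes. The 6 opposite genes per direction had to meet the same conditions on measurement in both lines, highest group mean and class. Measured in a line means a group mean of at least 4 at 0 min or 24 h. Other members of lists are named as counted, and the metallothionein, NRF2 and S100 genes after their values were seen. For the difference between the lines in named genes, 83 of 147 further probe sets had an unadjusted p under 0.05 in the same direction as the one used and none in the other. That count does not cover the change within each line. Promoters are RefSeq's, of GRCh38.p14, matched by symbol for 9918 of 12113 genes. Alternatives were each array left out, 19 or 25 arrays, other filters, a floor, averaged probe sets, trended and robust moderation, weights, repeated normalization, centring, a block, a fold threshold and, chosen after seeing the data, a covariate for the 75th percentile of the MDA-MB-453 arrays and array 4 left out with weights.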

Additional observations from a re-analysis of the deposited data

Results flagged for a closer look

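On 25 of the 156 named genes, 1 of the 4 BT20 arrays at 0 min lay far from the other 3 (gap over range above Dixon's critical value for 4 arrays; chance flags about 1 in 20 groups). In 23 of the 25 it was array 4, and in 13 it lay on the side of the 24 h arrays. The log2 values of array 4 were 3.369 for BMF, 11.515 for CDH3, 11.850 for CDH5, 7.227 for CENPA, 11.160 for CENPF, 3.638 for CYP1A1, 8.855 for DDIT4 and 11.947 for EREG. They were 5.912 for ERG, 11.627 for FKBP5, 9.813 for FOSL1, 4.986 for GRB7, 5.522 for IL6, 7.848 for ITGB4, 3.057 for MAB21L4 and 7.295 for NFKBIA. For the remaining genes they were 4.900 for PECAM1, 7.007 for RFTN1, 12.248 for SFN, 5.933 for SLITRK6, 9.950 for SRM, 9.801 for STC2 and 11.670 for THBS1. CHAC1 had its outlying value on array 2 (3.705) and TNFAIP2 on array 3 (10.870).

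The lines differed by the limma test of the difference for 1141 genes with a higher and 1036 with a lower change in BT20. Opposite calls were made for 30 genes that rose in BT20 and fell in MDA-MB-453 and for 44 that fell in BT20 and rose in MDA-MB-453. The BT20 change minus the MDA-MB-453 change was 4.18 for HMOX1, 2.95 for RARRES1, 2.44 for EPB41L1, 2.51 for PIR, 2.23 for RAB31 and 1.92 for AQP3. It was -3.32 for DSE, -3.42 for IL18, -3.71 for ARHGAP42, -2.33 for STYK1, -2.32 for PRSS23 and -3.21 for MT1F.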

How the results depend on the processing

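Leaving out array 4 of BT20 at 0 min gave 3840 genes with a different change, 2129 called in MDA-MB-453, 2737 in BT20 only, 352 in MDA-MB-453 only, 1291 in both lines and 186 opposite. Over the 13 fits that each leave out 1 array, the counts ran from 1666 to 3840 (difference), 3773 to 6227 (BT20), 591 to 2129 (MDA-MB-453), 1288 to 2737 (BT20 only), 142 to 352 (MDA-MB-453 only), 320 to 1291 (both lines) and 41 to 186 (opposite); the lowest for MDA-MB-453, its own class, both lines and opposite genes came without array 1 of MDA-MB-453 at 24 h. With 19 arrays, 112 genes were opposite, and with values under 4 set to 4, 302 were in MDA-MB-453 only. A change of at least 1 on the log2 scale left 1332 (difference), 1787 (BT20), 316 (MDA-MB-453), 1000 (BT20 only), 106 (MDA-MB-453 only), 109 (both lines) and 9 (opposite). Array 4 left out with 1 weight per line, chosen after seeing the data, gave 3801 (difference), 1563 (MDA-MB-453), 2923 (BT20 only), 1020 (both lines) and 150 (opposite). The cause was not tested. Of 121 named genes with a called difference, 98 were called in every alternative in which they were tested. The difference for KCTD12 turned to a called 1.227 with values under 4 set to 4; those for CASP8, CFLAR, EGR1, KLHDC9 and UTP20, not called with all arrays, also crossed 0 under some alternatives.

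With the replicate number as a block within each line, 2868 genes differed, 5372 were called in BT20, 1185 were called in MDA-MB-453, and 2223, 229, 697 and 89 fell to BT20 only, MDA-MB-453 only, both lines and opposite. The block drops array 4 of BT20 at 0 min, which has no partner. The numbers do not pair the arrays: same-numbered arrays correlated in their deviations from the group means at 0.0899, -0.111 and -0.0181 in BT20 and 0.138, -0.447 and -0.65 in MDA-MB-453. Some MDA-MB-453 arrays were closer across times than within 1 time, over probe sets. Arrays 2 and 3 at 24 h correlated at 0.9867. Array 2 at 24 h reached 0.9939 with array 3 at 0 min, and array 3 at 24 h reached 0.9917 with array 2 at 0 min. Why was not tested. Signal near the background limits sizes of change at levels under 4.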
